A study of Homo sapiens with 44 samples.

Results

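The genes described here are 7 parts of cytokine signalling through JAK2 and STAT5: the receptors PRLR and LIFR, the kinase JAK2, the transcription factors STAT5A and STAT5B, and the inhibitors CISH and SOCS3. They were taken by symbol from the annotation of the array, and where a symbol had several transcript clusters the one that read highest on average stood for the gene, so that 7 clusters of the 53617 in the table, or 7 of 14884 named genes, are the subject. All 7 passed the filter on low values and were tested, and each read above the 30th percentile of the array on all 44 of them. SOCS3 had 1 further cluster, which averaged 2.65 on the log2 scale, was above that percentile on 0 arrays and was not tested.

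Transcripts were profiled in ZR-75-1 cells, a luminal breast cancer line in wide laboratory use in which both the estrogen receptor and the progesterone receptor are present. Cells grown in hormone stripped medium received 10 nM estradiol (E2) for 72 h, called priming here, and a second addition was then overlaid on the same medium, so the first E2 was not taken away. In primed cells the overlay was vehicle for 0, 4, 8 or 16 h, 10 nM medroxyprogesterone acetate (MPA) for 4, 8 or 16 h, 10 nM progesterone (P4) for 4, 8 or 16 h, or, for 16 h, 10 nM E2 with 10 nM MPA, 10 nM E2 with 10 nM P4, or 10 nM E2 alone. Unprimed cells had ethanol vehicle for 72 h and again for 16 h. The additions were staggered so that all RNA was isolated together, and the 44 arrays made 14 groups, of 3 arrays each except for E2+P4, which had 5. All groups are wells of 1 cell line at 1 passage, and nothing in the labels says that replicates were separate experiments, so the p-values speak only for the spread among these samples, part of which may be technical. No group received a progestin without priming. The 0 h vehicle carries another ethanol dilution in its label than the later vehicles do. MPA is a synthetic relative of progesterone that carries a methyl group and an acetate ester that progesterone lacks. In a culture measured as a whole, fewer cells with a transcript and less transcript per cell cannot be told apart.

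Cytokine receptors of the prolactin and LIF type have no kinase of their own. Binding of the hormone brings receptor-bound JAK kinases together, which phosphorylate the receptor and then STAT proteins, and the STATs enter the nucleus and bind DNA. STAT5A and STAT5B are close paralogs that carry the prolactin signal in the mammary gland, where STAT5A in particular is required for the milk-secreting epithelium in mice. CISH and SOCS3 are induced by STATs and shut the receptor complex down again, CISH chiefly at STAT5-coupled receptors and SOCS3 chiefly at receptors that use gp130, the partner of LIFR.

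Values are log2 RMA values, on which a difference of 1 is a doubling, and a gene counts as called where its adjusted p did not exceed 0.05 (limma, Benjamini-Hochberg over 41374 clusters). Hormone labels were checked first: PGR, the estrogen-induced progesterone receptor gene, was higher after priming (log2 change 2.13) and lower after 16 h of MPA (-3.40) or P4 (-3.05), and FKBP5, a gene that progestins induce, rose by 2.56 with MPA and 2.32 with P4. Of the 9 epithelial and luminal markers looked up, 8 had a cluster and all 8 were above the 30th percentile on all 44 arrays, among them KRT18 at 11.67, GATA3 at 11.02 and ESR1 at 8.59 on average. The fibroblast markers DCN and LUM were above it on 0 arrays. Endothelial PECAM1, VWF and KDR averaged between 5.02 and 5.44, and of 3 immune markers CD68 averaged 8.37, LST1 6.89 and CD14 4.76. The summed linear level of these 3 immune markers ran between 422 and 715 over the 14 groups. The array of replicate 1 of the 4 h vehicle had the lowest weight (0.199) and the lowest JAK2 value of all arrays. Values without it are given below for JAK2, LIFR and SOCS3. Replicate 3 of the 16 h vehicle in primed cells, part of the reference for 16 h of progestin and of the priming comparison, had the next lowest weight (0.340). Progestin arrays were each compared with vehicle of the same length, and the MPA and P4 comparisons share those vehicle arrays, so their results are set side by side and not counted as independent.

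Progestins moved these genes on different time courses. The 7 were chosen with earlier results of these data known. Their counts beside the background are therefore descriptions and no test of the set. JAK2 and LIFR were already higher at 4 h, by between 1.64 and 1.87 on the log2 scale, and were called higher at 8 and 16 h as well. STAT5A and STAT5B had larger changes at 16 h than at 4 h, a difference called for P4, and PRLR was not called at 4 h and was lower at 8 and 16 h. CISH was lower at all 3 times, and SOCS3 was called lower at 8 h. After 8 h of MPA, 4 of the 7 were higher and 3 lower, against a background of 14.3% of all clusters called, and after 8 h of P4 the count was the same, against 13.3%. After 4 h, 2 were higher and 1 lower with MPA (background 8.28%), and 3 were higher and 1 lower with P4 (background 7.9%). After 16 h, 4 were higher and 2 lower with MPA (background 16%) and with P4 (background 15.8%), SOCS3 being the gene not called. The median size of the change over the 7 was 0.69 after 16 h of MPA and 0.82 after 16 h of P4, beside 0.17 and 0.16 over all clusters. The backgrounds include low clusters, while the 7 had mean levels between the 68.7 and 97.4 percentile. With a 50th percentile filter, 6904 (MPA) and 6783 (P4) of 31002 clusters were called at 16 h, against 6611 and 6549 of 41374, so the share called was higher. The arrays of progestin and vehicle did not overlap for 4 of the 7 after 4 h of MPA (16.5% of all clusters) or P4 (17.9%), for all 7 after 8 h of MPA (30.9%) or P4 (31.7%), and for 6 of the 7 after 16 h of MPA (25.6%) and all 7 after 16 h of P4 (28.9%).

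**Figure D1:**
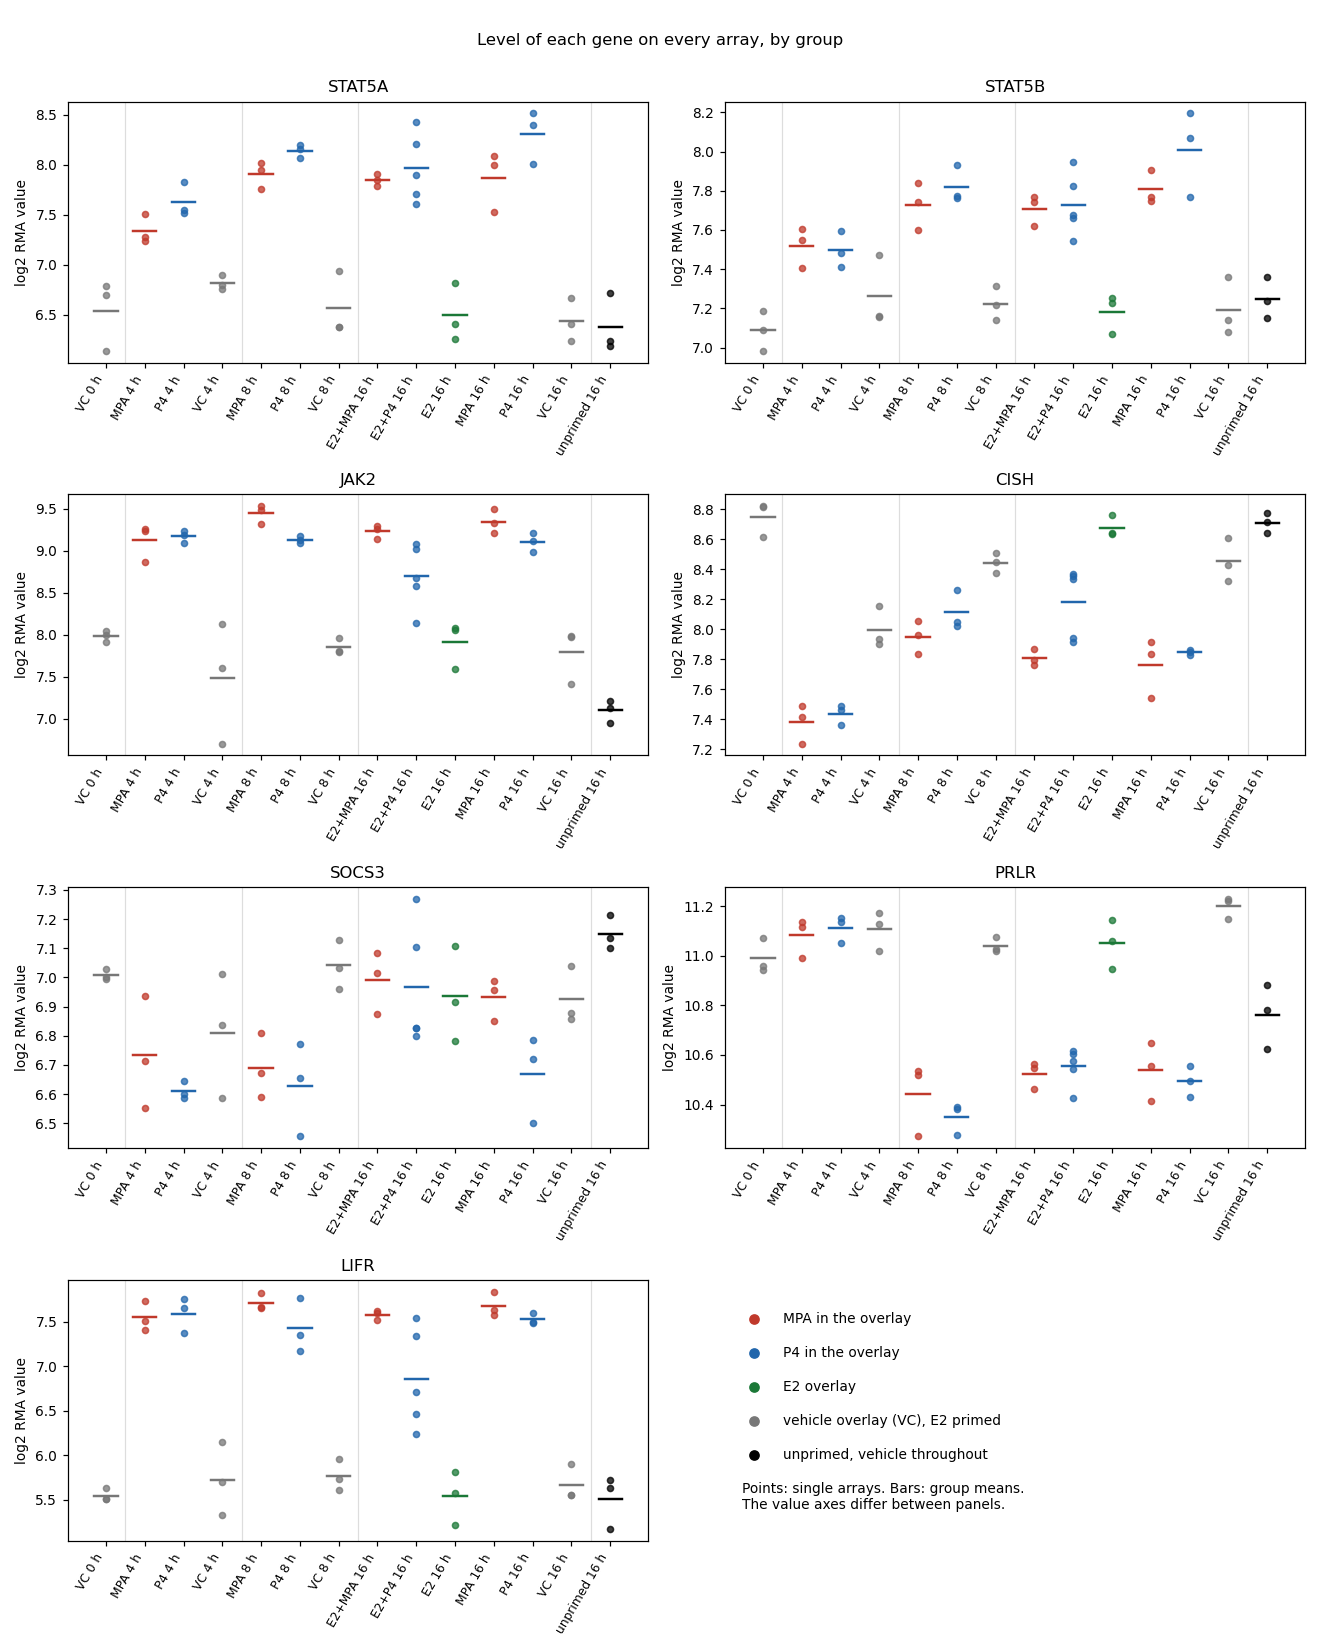
The vertical axes give the log2 RMA value of each gene and the horizontal axes the 14 groups, with points for single arrays and bars for group means. For STAT5A, JAK2 and LIFR every progestin array lies above every array without progestin, the lowest progestin value of JAK2 being 8.14 against 8.13 for the highest other array.

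LIFR is the receptor chain that binds leukemia inhibitory factor and, with gp130, cardiotrophin-1, ciliary neurotrophic factor and oncostatin M (annotated on chromosome 5, bases 38474668 to 38608403 of GRCh38.p14). After 4 h it read 7.51, 7.74 and 7.41 with MPA and 7.65, 7.75 and 7.37 with P4, against 5.33, 5.70 and 6.15 with vehicle. The groups did not overlap, and the change was 1.83 ± 0.23 with MPA (SE, adjusted p = 2.83e-07) and 1.87 ± 0.23 with P4 (adjusted p = 1.72e-07). Without replicate 1 of the 4 h vehicle it was 1.63 with MPA and 1.67 with P4, both still called. At 8 h the arrays gave 7.65, 7.83 and 7.66 with MPA and 7.17, 7.77 and 7.35 with P4, against 5.73, 5.96 and 5.61 with vehicle. At 16 h they gave 7.58, 7.63 and 7.84 with MPA and 7.60, 7.48 and 7.50 with P4, against 5.91, 5.56 and 5.56 with vehicle. LIFR thus stood about as high at 16 h as at 4 h, with changes of 2.01 ± 0.23 for MPA and 1.85 ± 0.23 for P4, which is 4.03-fold and 3.62-fold. The difference between the 16 h and the 4 h effect was 0.18 (95% interval -0.47 to 0.84) with MPA and -0.01 (-0.66 to 0.64) with P4.

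PRLR, the prolactin receptor (chromosome 5, 35048756 to 35230487), had the highest mean level of the 7 clusters, 10.79, although clusters with different probes cannot be ranked strictly. It had 10.99, 11.14 and 11.12 after 4 h of MPA and 11.05, 11.13 and 11.15 after 4 h of P4, against 11.13, 11.02 and 11.17 in vehicle, which overlap. At 8 h it had 10.27, 10.52 and 10.54 with MPA and 10.28, 10.38 and 10.39 with P4, against 11.03, 11.07 and 11.02 with vehicle. By 16 h it had 10.65, 10.56 and 10.41 with MPA and 10.49, 10.43 and 10.55 with P4, against 11.15, 11.23 and 11.22 with vehicle. All progestin arrays of 8 and 16 h were below all vehicle arrays of the same time. PRLR fell by 0.66 ± 0.08 with MPA at 16 h (1.58-fold lower, adjusted p = 4.33e-08) and by 0.71 ± 0.08 with P4 (1.63-fold lower, adjusted p = 1.07e-08). Its 16 h effect differed from its 4 h effect by -0.63 ± 0.11 with MPA (adjusted p = 0.000189) and by -0.71 ± 0.11 with P4 (adjusted p = 2.44e-05). With only the compared arrays the MPA difference lost its call (adjusted p = 0.0637). In that comparison of 16 with 4 h, PRLR was the 1 gene of the 7 called with MPA (background 4.38%) and 1 of 3 called with P4 (background 6.71%).

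JAK2, the kinase that sits on the prolactin receptor (chromosome 9, 4984390 to 5129948), followed LIFR in time. After 4 h it had 9.26, 9.24 and 8.87 with MPA and 9.24, 9.19 and 9.09 with P4, against 6.70, 7.61 and 8.13 with vehicle. The 4 h vehicle arrays spread over more than a log2 unit, and the lowest of them is the low-weight array. After 8 h the values were 9.32, 9.53 and 9.48 with MPA and 9.09, 9.17 and 9.12 with P4, against 7.96, 7.79 and 7.81 with vehicle, and after 16 h they were 9.21, 9.32 and 9.50 with MPA and 9.21, 9.12 and 8.98 with P4, against 7.99, 7.97 and 7.42 with vehicle. No progestin group overlapped its vehicle. Without the low-weight array the 4 h change was 1.25 with MPA and 1.30 with P4, both still called. With all arrays, at 4 h the change was 1.64 ± 0.22 with MPA (3.12-fold, adjusted p = 9.01e-07) and 1.69 ± 0.22 with P4 (3.22-fold, adjusted p = 4.8e-07), and at 16 h it was 1.55 ± 0.22 with MPA and 1.31 ± 0.22 with P4. The 4 h calls of JAK2 were lost when only the compared arrays set the spread (adjusted p = 0.104 with MPA and 0.0736 with P4). JAK2 was the gene of the 7 that priming raised most: it read 7.99, 7.97 and 7.42 in primed 16 h vehicle cells, against 6.96, 7.21 and 7.13 in unprimed cells.

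STAT5A and STAT5B lie side by side on chromosome 17, at 42287439 to 42311943 and 42199177 to 42288370, and their annotated spans overlap by 932 bases; which probes lie in that stretch was not examined. STAT5A had 7.27, 7.51 and 7.24 after 4 h of MPA and 7.52, 7.82 and 7.55 after 4 h of P4, against 6.90, 6.76 and 6.80 in vehicle. The groups did not overlap, yet the 4 h change was called for P4 (0.81 ± 0.20, adjusted p = 0.0052) and not for MPA (0.52 ± 0.20, adjusted p = 0.106). The difference between both progestins at 4 h, MPA minus P4, was -0.29 (95% interval -0.69 to 0.11, adjusted p = 0.557).

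At 8 h STAT5A had 7.94, 7.75 and 8.02 with MPA and 8.07, 8.20 and 8.15 with P4, against 6.38, 6.38 and 6.94 with vehicle, and at 16 h it had 8.09, 8.00 and 7.52 with MPA and 8.51, 8.01 and 8.40 with P4, against 6.24, 6.66 and 6.41 with vehicle. STAT5A thereby reached 2.70-fold with MPA (1.43 ± 0.20, adjusted p = 9.15e-07) and 3.65-fold with P4 (1.87 ± 0.20, adjusted p = 4.82e-09). The P4 effect was larger at 16 h than at 4 h by 1.06 ± 0.28 (adjusted p = 0.0136). For MPA that difference was 0.91 ± 0.28 and not called (adjusted p = 0.0542); it was called without replicate 3 of MPA 16 h (1.08, adjusted p = 0.022) or replicate 2 of the 16 h vehicle (1.02, adjusted p = 0.0401).

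STAT5B moved the same way over a smaller range. Its 4 h values were 7.41, 7.60 and 7.55 with MPA and 7.41, 7.60 and 7.48 with P4, against 7.16, 7.15 and 7.47 with vehicle, which overlap. Its 16 h values were 7.90, 7.77 and 7.75 with MPA and 8.19, 7.77 and 8.07 with P4, against 7.36, 7.08 and 7.14 with vehicle, which do not. The 16 h change was 0.61 ± 0.11 with MPA (1.53-fold, adjusted p = 5.18e-05) and 0.82 ± 0.11 with P4 (1.76-fold, adjusted p = 4.16e-07). The P4 effect on STAT5B was larger at 16 h than at 4 h by 0.58 ± 0.15 (adjusted p = 0.013), a call that was lost without replicate 1 of P4 16 h (0.49, adjusted p = 0.0614) or replicate 3 of the 4 h vehicle (0.48, adjusted p = 0.0546), and with only the compared arrays (adjusted p = 0.186). Over the 3 times, the rise of STAT5A exceeded that of STAT5B by 0.64 with MPA and by 0.87 with P4. This comparison of the paralogs was chosen after their values were seen and is given as a description, with no test, and the 2 clusters have unlike probes, which can differ in how far they compress a change.

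The 250 bases upstream of the first annotated STAT5A start in RefSeq (GRCh38.p14, chr17:42287189-42287438, plus strand) are shown because STAT5A and LIFR had the widest 16 h changes with P4. Capitals mark the 1 match to the core of the progesterone response element (TGTTCT, or AGAACA on the other strand), a sequence that glucocorticoid and androgen receptors also bind.

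STAT5A: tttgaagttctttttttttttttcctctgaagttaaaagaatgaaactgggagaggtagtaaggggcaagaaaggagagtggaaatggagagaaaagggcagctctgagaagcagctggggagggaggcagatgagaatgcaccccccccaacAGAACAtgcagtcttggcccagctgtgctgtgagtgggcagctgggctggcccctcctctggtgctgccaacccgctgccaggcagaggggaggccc

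CISH, an SH2 protein that is a classical target of STAT5 and blocks its docking on receptors (chromosome 3, 50606489 to 50611774), went the other way from the STAT5 genes. After 4 h it had 7.49, 7.24 and 7.42 with MPA and 7.46, 7.36 and 7.49 with P4, against 7.90, 8.16 and 7.93 with vehicle. CISH fell by 0.62 ± 0.11 with MPA (adjusted p = 0.000155) and by 0.56 ± 0.11 with P4 (adjusted p = 0.00055), calls that were lost when only the compared arrays set the spread (adjusted p = 0.114 and 0.0885). After 8 h it had 7.83, 8.06 and 7.96 with MPA and 8.02, 8.05 and 8.26 with P4, against 8.45, 8.51 and 8.37 with vehicle. The 8 h fall was 0.49 ± 0.11 with MPA and 0.33 ± 0.11 with P4 (adjusted p = 0.0439), and the P4 call at 8 h was lost in 5 of 6 fits that left out 1 array, all but the one without replicate 3 of P4, with changes between -0.41 and -0.29. That P4 call was also lost without the filter on low values (adjusted p = 0.0607) and with only the compared arrays (0.0733). The same held with the interquartile range of the array as covariate (0.0722). After 16 h CISH had 7.54, 7.92 and 7.84 with MPA and 7.85, 7.86 and 7.83 with P4, against 8.61, 8.43 and 8.32 with vehicle, and fell by 0.69 ± 0.11 with MPA and 0.61 ± 0.11 with P4. All 9 arrays of each progestin were below all vehicle arrays of the same time.

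CISH was also the 1 gene of the 7 that differed between the vehicle overlays themselves (moderated F-statistic, adjusted p = 0.000456, background 1.94%). Vehicle cells had 8.82, 8.61 and 8.82 at 0 h, 7.90, 8.16 and 7.93 at 4 h, 8.45, 8.51 and 8.37 at 8 h and 8.61, 8.43 and 8.32 at 16 h. Against 0 h the level was 0.75 lower at 4 h, 0.31 lower at 8 h and 0.30 lower at 16 h, on the log2 scale, a call lost when only the vehicle arrays set the spread. The overlay of medium and the ethanol dilution both differ between 0 h and the later times and cannot be told apart. The lowest CISH values of the series, those of the 4 h progestin groups, thus carry the 4 h dip of the vehicle as well as the difference from it.

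The stretch upstream of the annotated CISH start (GRCh38.p14, chr3:50611775-50612024, minus strand) is shown because it holds 4 matches to TTCNNNGAA, the palindrome that STAT5 and other STATs bind. Capitals mark the 4 matches.

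CISH: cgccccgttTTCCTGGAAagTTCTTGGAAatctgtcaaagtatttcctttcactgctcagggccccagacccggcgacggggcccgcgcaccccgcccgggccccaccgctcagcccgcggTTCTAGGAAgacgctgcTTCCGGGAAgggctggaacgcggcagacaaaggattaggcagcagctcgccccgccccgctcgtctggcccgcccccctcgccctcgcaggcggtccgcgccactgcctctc

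The first bases of the matches lie at -241, -230, -129 and -112, counted from the start. Of 35114 RefSeq promoter windows of 300 bases, 7.66% held at least 1 such match, 17 (0.0484%) held 3 or more and 7 held 4 or more. Among the 7 genes, CISH and LIFR held such a match, beside 9.38% of all genes with a window, and with progestin CISH was lower and LIFR higher. The 7 genes had 16 windows, and all 27303 genes had 35114, so more windows per gene were searched here and the shares per gene are not alike. Transcript levels say nothing of STAT5 phosphorylation, which was not measured.

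SOCS3, the inhibitor of gp130-coupled receptors (chromosome 17, 78356778 to 78360925), had the smallest span of group means of the 7. At 8 h it had 6.81, 6.59 and 6.67 with MPA and 6.77, 6.46 and 6.66 with P4, against 7.03, 6.96 and 7.13 with vehicle, all progestin arrays being lower. It fell by 0.35 ± 0.12 with MPA (adjusted p = 0.0372) and by 0.41 ± 0.12 with P4 (adjusted p = 0.0125), but the MPA call was lost without replicates 2 or 3 of MPA or replicates 1 or 3 of vehicle (changes between -0.36 and -0.30), and the P4 call without replicate 2 of P4 (-0.33) or replicate 3 of vehicle (-0.37). With only the compared arrays both 8 h calls were lost (adjusted p = 0.0664 with MPA and 0.0509 with P4). The MPA call was also lost without the filter on low values (0.0514) and with the interquartile range of the array as covariate (0.0519). At 4 h the SOCS3 changes were -0.08 with MPA and -0.20 with P4, and at 16 h they were 0.01 and -0.26, none of them called. At 16 h SOCS3 had 6.96, 6.99 and 6.85 with MPA and 6.50, 6.79 and 6.72 with P4, against 6.86, 7.04 and 6.88 with vehicle.

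**Figure D2:**
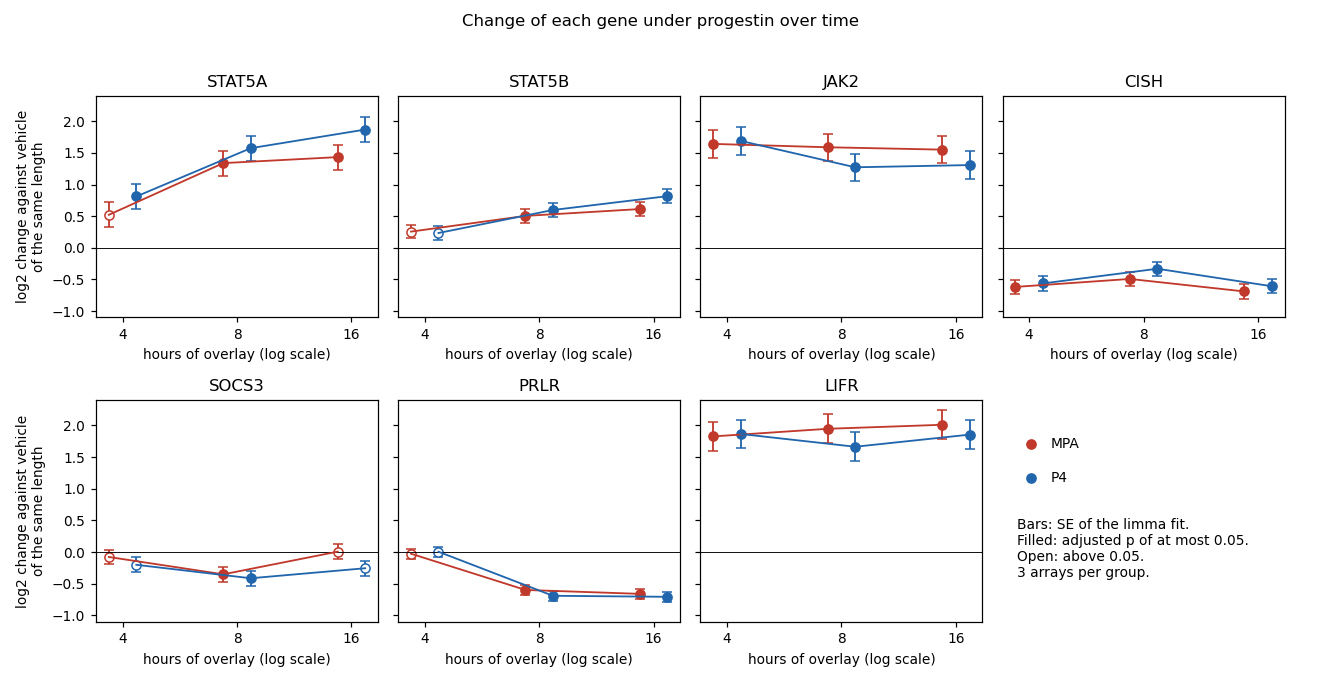
The horizontal axes give the hours of overlay on a log scale and the vertical axes the log2 change of MPA or P4 cells against vehicle of the same length, with SE bars and filled points where the adjusted p was at most 0.05. JAK2 and LIFR start high at 4 h, STAT5A and STAT5B climb to 16 h, and PRLR leaves 0 between 4 and 8 h.

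Averaged over 4, 8 and 16 h, the exact permutation test of single genes (two-sided, 9 progestin against 9 vehicle arrays, smallest possible p 0.00025) gave the same directions. With MPA the mean difference was 1.93 for LIFR, 1.59 for JAK2, 1.10 for STAT5A and -0.60 for CISH, each at that smallest exact p, 0.46 for STAT5B (exact p = 0.0005) and -0.43 for PRLR (exact p = 0.0015). SOCS3 missed the threshold with MPA (-0.14, exact p = 0.0778), but passed it without replicate 3 of MPA 4 h (-0.17, exact p = 0.0335) or replicate 1 of the 4 h vehicle (-0.18, exact p = 0.0268). With P4 it was 1.79 for LIFR, 1.42 for JAK2, 1.42 for STAT5A and -0.50 for CISH at the smallest exact p, 0.55 for STAT5B (exact p = 0.0005), -0.29 for SOCS3 (exact p = 0.001) and -0.46 for PRLR (exact p = 0.003).

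MPA and P4 were then compared directly at the same dose and times. None of the 7 was called by limma over the 3 times pooled, where 0.276% of all clusters were and 2 of the 7 had an unadjusted p under 0.05, nor at 4 h (background 0.0145%), 8 h (0.00242%) or 16 h (0.0121%), with 0, 0 and 2 of the 7 under an unadjusted 0.05. The largest pooled difference, MPA minus P4, was that of STAT5A, -0.32 (95% interval -0.55 to -0.09, adjusted p = 0.222), with MPA the lower at each time. For SOCS3 it was 0.15 (0.01 to 0.29), for JAK2 0.17 (-0.08 to 0.43), for LIFR 0.13 (-0.13 to 0.40), for CISH -0.10 (-0.23 to 0.03), for STAT5B -0.09 (-0.22 to 0.03) and for PRLR 0.04 (-0.05 to 0.13). These intervals leave room for differences of the stated sizes, so equal action of the compounds is not shown by the missing calls.

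Fresh E2 alone gave no call among these genes. Against 16 h vehicle, 0 of the 7 were called (limma, background 0.00483%) and 0 had an unadjusted p under 0.05, the largest difference being that of CISH, which had 8.64, 8.76 and 8.63 with E2, against 8.61, 8.43 and 8.32 with vehicle (0.22 ± 0.11). CISH and PRLR were the 2 genes whose arrays did not overlap there, as for 7.83% of all clusters. Given with fresh E2, MPA raised 4 of the 7 and lowered 2 against E2 alone (background 19.8%), and so did P4 (background 13.9%), the genes being those called for 16 h of progestin against vehicle.

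STAT5A had 7.91, 7.79 and 7.84 with E2+MPA and 7.71, 8.43, 7.61, 7.90 and 8.21 with E2+P4, against 6.26, 6.41 and 6.82 with E2, and rose by 1.35 ± 0.20 with E2+MPA and by 1.48 ± 0.18 with E2+P4. PRLR had 10.56, 10.55 and 10.46 with E2+MPA and 10.58, 10.54, 10.61, 10.62 and 10.43 with E2+P4, against 11.14, 10.95 and 11.06 with E2. The progestin arrays did not overlap those of E2 for either gene, nor for 6 of the 7 in all with E2+MPA (34% of all clusters) and with E2+P4 (17.8%). PRLR fell by 0.53 ± 0.08 with E2+MPA and by 0.50 ± 0.07 with E2+P4, and STAT5B rose by 0.53 ± 0.11 and 0.55 ± 0.10.

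LIFR and CISH had their widest spread of all groups in E2+P4. LIFR had 7.52, 7.60 and 7.63 with E2+MPA, and 6.24, 7.34, 6.47, 6.71 and 7.54 with E2+P4, against 5.82, 5.22 and 5.58 with E2. JAK2 had 9.14, 9.26 and 9.29 with E2+MPA, and 8.14, 9.01, 8.58, 8.67 and 9.08 with E2+P4, against 8.05, 7.60 and 8.08 with E2. CISH had 7.87, 7.76 and 7.79 with E2+MPA, and 8.34, 7.92, 8.37, 8.35 and 7.94 with E2+P4, against 8.64, 8.76 and 8.63 with E2. LIFR rose by 2.04 ± 0.23 with E2+MPA and 1.32 ± 0.20 with E2+P4, JAK2 by 1.32 ± 0.22 and 0.79 ± 0.19, and CISH fell by 0.87 ± 0.11 and 0.49 ± 0.10. The E2+P4 call of JAK2 was lost without replicate 2 of E2 (0.63, adjusted p = 0.0562), and those of JAK2 and CISH were lost with only the compared arrays (adjusted p = 0.0615 and 0.0589). Replicates 2 and 5 of E2+P4 had the 2 highest LIFR and JAK2 values and the 2 lowest CISH values of the group, beside the levels of P4 given alone, while replicates 1, 3 and 4 lay between those and E2.

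Set directly against E2+P4, E2+MPA had 1 of the 7 higher, LIFR (0.72 ± 0.20, adjusted p = 0.0252), and 1 lower, CISH (-0.38 ± 0.10, adjusted p = 0.0162), where 6.08% of all clusters were called. Both were lost with only the compared arrays (adjusted p = 0.323 for LIFR and 0.280 for CISH). The LIFR call was lost in 6 of 8 fits that left out 1 array, all but those without replicates 2 or 5 of E2+P4, with changes between 0.57 and 0.89, and the CISH call was lost without replicates 2 or 3 of E2+MPA or replicates 3 or 4 of E2+P4, with changes between -0.44 and -0.33 over the 8 fits. The 3 E2+MPA arrays overlapped the 5 E2+P4 arrays for LIFR, lay below them for CISH and lay above them for JAK2, whose difference was 0.53 (95% interval 0.14 to 0.93, adjusted p = 0.116) and was called without replicate 5 of E2+P4 (0.63, adjusted p = 0.0468). Groups without overlap, as for CISH and JAK2, were found for 10.1% of all clusters.

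Whether fresh E2 changed the progestin effect was tested as the difference of both effects. None of the 7 was called by limma for MPA (background 0.234%) or for P4 (background 0.00967%), and 0 had an unadjusted p under 0.05 in either. For P4 the differences were widest for LIFR (-0.53, 95% interval -1.15 to 0.09) and JAK2 (-0.52, -1.11 to 0.07), and for MPA they were 0.03 (-0.62 to 0.68) and -0.23 (-0.86 to 0.39).

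**Figure D3:**
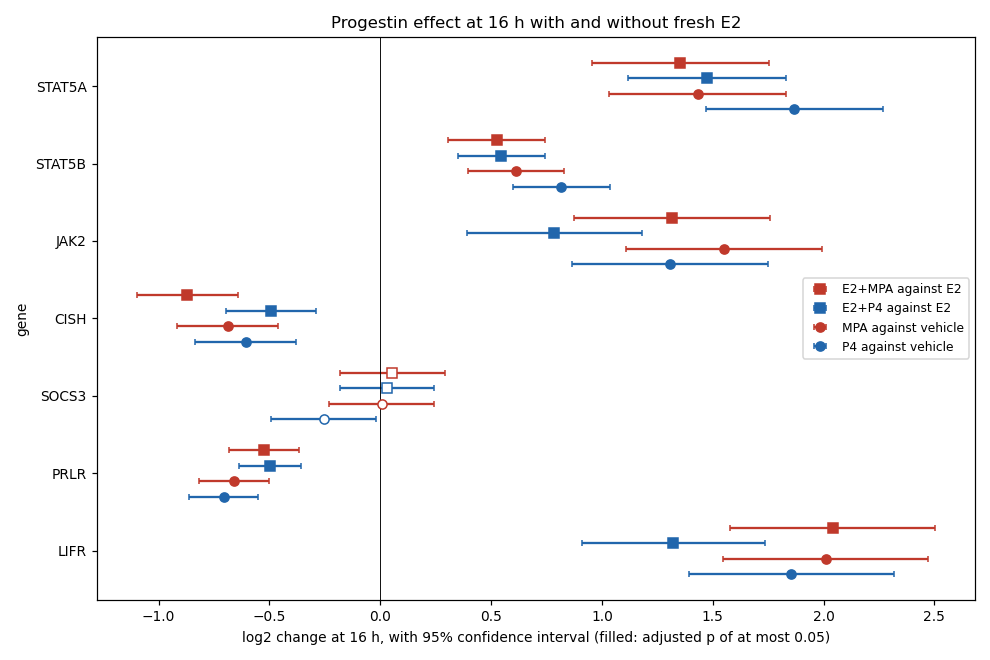
Each row gives the log2 change at 16 h with its 95% confidence interval, with squares for E2+MPA or E2+P4 against E2 and circles for MPA or P4 against vehicle. The signs are shared by all 4 for every gene other than SOCS3, and the LIFR change is 2.04 for E2+MPA and 1.32 for E2+P4.

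Priming moved 2 of the 7, both upward, against a background of 7.5% of all clusters called and 2.55% called higher. The arrays of primed and unprimed cells did not overlap for 4 of the 7, beside 22.4% of all clusters. PRLR had 11.15, 11.23 and 11.22 in primed cells and 10.78, 10.88 and 10.63 in unprimed cells, and rose by 0.44 ± 0.08 (1.35-fold, adjusted p = 0.000136, or 0.109 with only the compared arrays). JAK2, whose values are given above, rose by 0.70 ± 0.22 (1.62-fold, adjusted p = 0.0427), and this call was lost with only the compared arrays (adjusted p = 0.126), without the filter on low values (0.0547) and in 5 of 6 fits that left out 1 array, all but the one without replicate 3 of the 16 h vehicle, with changes between 0.60 and 0.88. CISH had 8.61, 8.43 and 8.32 in primed cells and 8.64, 8.71 and 8.77 in unprimed cells, which do not overlap, but its difference was not called (-0.26 ± 0.11, adjusted p = 0.188). STAT5A (0.05), STAT5B (-0.05), LIFR (0.16) and SOCS3 (-0.22) were not called.

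Priming and 16 h of progestin thus changed PRLR in opposite directions and JAK2 in the same one. Both comparisons use the same arrays of 16 h vehicle with opposite sign, so a deviation in them alone would give opposite changes. PRLR was highest of the 14 groups there, at 11.20, against 11.05 with E2 alone. Its 8 h fall, 0.60 with MPA and 0.69 with P4, was read against the 8 h vehicle. In primed cells with 16 h of progestin, JAK2 was above its level in unprimed cells by 2.25 ± 0.22 with MPA (4.74-fold) and by 2.00 ± 0.22 with P4 (4.01-fold). LIFR was higher by 2.17 ± 0.23 and 2.02 ± 0.23, and STAT5A by 1.49 ± 0.20 and 1.92 ± 0.20. Against unprimed cells, 4 of the 7 were higher and 2 lower with MPA (background 22.8%), and 4 were higher and 3 lower with P4 (background 18.8%). PRLR stayed below the unprimed level by 0.22 ± 0.08 with MPA (adjusted p = 0.0333) and by 0.27 ± 0.08 with P4 (adjusted p = 0.0102), calls that were lost with only the compared arrays (adjusted p = 0.210 and 0.0943). Leaving out single arrays ended the MPA call without replicates 2 or 3 of MPA or 1 or 2 of unprimed cells (changes between -0.23 and -0.16), and the P4 call without replicate 2 of P4 (-0.24) or of unprimed cells (-0.21).

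Over all groups, the 26 arrays with a progestin, whatever the time or the E2, lay apart from the other 18 for 3 of the 7. STAT5A ran between 7.24 and 8.51 with progestin and between 6.14 and 6.94 without. JAK2 ran between 8.14 and 9.53 with progestin and between 6.70 and 8.13 without, and LIFR between 6.24 and 7.84 with progestin and between 5.17 and 6.15 without. Of all clusters tested, 0.923% were higher in this way and 1.32% lay apart in either direction. STAT5B came close, with progestin arrays starting at 7.41 and the others ending at 7.47, and CISH, PRLR and SOCS3 overlapped.

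When the 14 groups were ordered by their means, most neighbours could not be separated: of 13 neighbouring pairs the arrays overlapped in 11 for STAT5A, 12 for STAT5B, 12 for JAK2, 10 for CISH, 13 for SOCS3, 11 for PRLR and 12 for LIFR. The largest step was 1.09 in LIFR, between E2+P4 16 h and 8 h vehicle, and 0.71 in JAK2, between E2+P4 16 h and 0 h vehicle, and each of these set the 8 progestin groups apart from the 6 others. For PRLR the largest step, 0.23, divided 7 groups from 7, with the 4 h progestin groups on the higher side. Group means spanned 2.34 for JAK2, 2.20 for LIFR, 1.92 for STAT5A, 1.37 for CISH, 0.92 for STAT5B, 0.85 for PRLR and 0.54 for SOCS3.

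Across the 14 group means, which share the medium and the vehicles, STAT5A followed STAT5B (Pearson r 0.97) and JAK2 followed LIFR (r 0.96), as descriptions without a test. The labels name no batch of the arrays. CISH ran against LIFR (r -0.85) and JAK2 (r -0.76), and PRLR against STAT5B (r -0.82). The named genes most like STAT5A in this sense were PER1 (r 0.984), GSTP1 (r 0.983) and HOMER2 (r 0.982). Those most like LIFR were COX20, VLDLR and RHOU (r between 0.983 and 0.985), and those most like JAK2 were HPGD (r 0.989), PKP2 (r 0.984) and SEPTIN4 (r 0.976). Pearson r does not measure the size of a change. Group means spanned 0.82 for COX20, 1.98 for VLDLR and 2.07 for RHOU, beside 2.20 for LIFR. They spanned 1.91 for HPGD, 1.42 for PKP2 and 1.91 for SEPTIN4, beside 2.34 for JAK2. PRAG1 (r 0.973) was nearest to CISH, S1PR2 (r 0.980) to STAT5B, KLHL13 (r 0.955) to PRLR and PPDPF (r 0.934) to SOCS3.

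Among other genes of the pathway some were higher and some lower. They came from lists drawn up with earlier results of these data known, so their counts are descriptions. At 16 h the share of all clusters called was 16% with MPA and 15.8% with P4. Of 8 further STATs and JAKs, 5 were named and tested here, and 2 were higher and 0 lower after 16 h of either progestin, with a median change of 0.15 with MPA and 0.24 with P4, beside 0.02 and -0.01 over all clusters. STAT3, the main STAT of LIF signalling, rose by 0.39 ± 0.06 with MPA and 0.33 ± 0.06 with P4. STAT4, best known from lymphocytes, was the other gene called higher. It was above the 30th percentile on 3 of 3 arrays with MPA and with P4, against 1 of 3 with vehicle, so its vehicle level is near the floor of the array and no size is given for its change. Of 16 negative regulators listed, 6 were tested, all of them SOCS genes, and the other 10 had no cluster under their symbol. With MPA 0 of the 6 were called by limma, 2 having an unadjusted p under 0.05. With P4 1 rose, SOCS6 (0.30 ± 0.08). The median change of the 6 was 0.17 with MPA and 0.21 with P4.

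Receptors and ligands had calls in both directions. Of 35 cytokine receptors listed, 14 were tested, and the gp130 gene IL6ST was not among them. Of these 14, 2 were higher and 2 lower with MPA and 2 higher and 1 lower with P4. Their median changes were 0.22 and 0.04, where 16% and 15.8% of all clusters were called. IFNGR2, a chain of the interferon-gamma receptor, fell with both (-0.59 and -0.45). IL4R (0.60) and CRLF3 (0.51) were called higher with P4, and their changes with MPA, 0.41 and 0.14, were not called. CNTFR (0.45) and IL21R (0.44) were called higher and OSMR (-0.40) lower with MPA. The P4 changes of these genes, 0.19, 0.18 and -0.32, were not called. Between MPA and P4 at 16 h, 0 of the 14 were called (limma, background 0.0121%), 3 having an unadjusted p under 0.05. Of 16 ligands listed, 11 were tested, PRL and IL6 not among them (median changes 0.12 and 0.03). Of these 11, 1 was higher and 1 lower with MPA and 2 were higher and 1 lower with P4. CTF1, cardiotrophin-1, a ligand of LIFR, rose with both (0.66 ± 0.11 and 0.60 ± 0.11), and LIF itself rose with P4 (0.95 ± 0.27, adjusted p = 0.00981). The LIF change with MPA was 0.47 ± 0.27 and not called. Between MPA and P4 at 16 h, 0 of the 11 ligands were called (limma, background 0.0121%), 1 having an unadjusted p under 0.05. IL20 was higher by 2.86 after priming and fell by 1.39 after 16 h of MPA and by 0.82 after 16 h of P4.

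Of 15 genes listed as linked to STAT5 as targets, 12 were tested. At 16 h 1 of the 12 was higher and 2 lower with MPA (background 16%), and 4 were higher and 2 lower with P4 (background 15.8%). Their median changes were 0.17 and 0.12. MYC fell (-0.85 with MPA and -0.76 with P4), as did the kinase gene PIM2 (-0.59 and -0.61). The survival gene BCL2L1 (0.63) and ELF5, a regulator of milk-secreting cells (0.47, adjusted p = 0.0416), rose with P4. Their 16 h changes with MPA, 0.35 and 0.32, were not called. Between MPA and P4 at 16 h, 0 of the 12 were called (limma, background 0.0121%), 4 having an unadjusted p under 0.05. At 8 h the ELF5 change was -0.63 with MPA, which was called, and -0.43 with P4, which was not. The difference between these times was not tested for ELF5. BCL6, a repressor that STAT5 holds down in other cells, rose by 0.25 with MPA and 0.30 with P4. Of 18 adaptors and kinases listed, 13 were tested. Among these 13, 2 were higher and 3 lower with MPA (background 16%) and 5 higher and 2 lower with P4 (background 15.8%). Their median changes were 0.10 and 0.21. ERBB4, a receptor kinase that activates STAT5A in the mouse mammary gland, had the largest fall of these lists (-2.25 ± 0.15 with MPA and -2.35 ± 0.15 with P4), followed by the insulin receptor substrate IRS1 (-1.31 and -1.41), and PTK6, a cytoplasmic kinase, rose (0.81 and 1.11).

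At 4 h some of these genes stood elsewhere. PIM2 was higher by 1.08 with MPA and 0.85 with P4, IL20 by 0.75 and 1.26, CTF1 by 1.18 and 1.28, and BCL6 by 0.87 and 1.02, all called. For PIM2 and IL20 these signs are opposite to those of 16 h, in their own comparisons at each time. These 4 genes were chosen for their 4 h values after those were seen, and the difference between the times was not tested for them.

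Priming called 1 of the 5 STATs and JAKs, 1 of the 6 negative regulators, 5 of the 14 receptors, 1 of the 11 ligands, 5 of the 12 STAT5-linked genes and 4 of the 13 adaptors and kinases, beside 7.5% of all clusters. It raised JAK1 (0.36), IL6R (0.51), MYC (1.01), PIM1 and PIM2 (0.46 each), IRS1 (1.34) and IRS2 (0.65), and it lowered SOCS1 (-0.49), IL4R (-0.71), IFNGR1 (-0.70), GHR (-0.53), GAB1 (-0.69) and PTK6 (-0.65). MYC, IRS1, PIM2 and IL20 were thus higher after priming and lower after 16 h of progestin, as PRLR was. Other genes that priming raised did not reverse. IRS2 (0.70) and CCND1 (0.43 with priming, 0.25 with P4) were called higher after 16 h of P4. Their changes after 16 h of MPA, 0.48 and 0.12, were not called. JAK1, IL6R and PIM1 were called with neither progestin at 16 h. The 16 h vehicle arrays enter both comparisons with opposite sign.

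**Figure D4:**
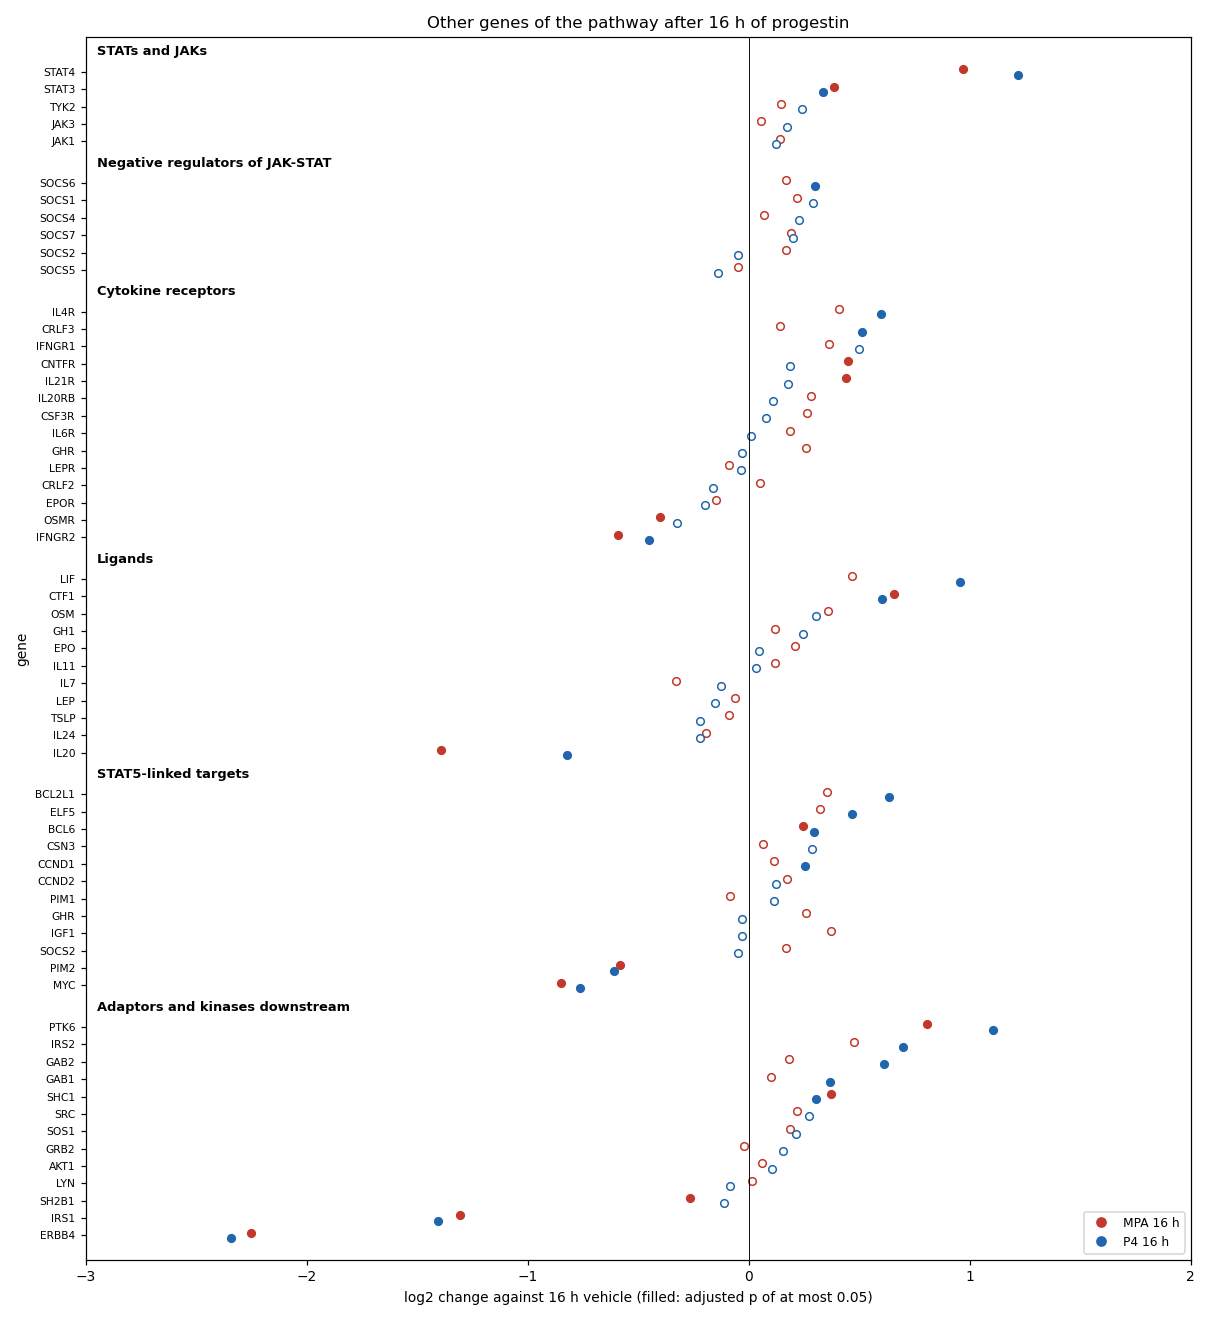
Each row is a gene of a list, the horizontal axis gives its log2 change after 16 h of MPA or P4 against 16 h vehicle, and filled points passed the adjusted p of at most 0.05. The widest change is that of ERBB4 at -2.35 with P4, and the points of STAT4 rest on a vehicle level near the floor of the array.

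The promoter windows of the 7 genes (RefSeq, 250 bases before to 50 after each of 16 annotated starts, all 7 genes matched) held few other motifs. Starts are numbered by rising base position, which for PRLR and LIFR, on the minus strand, begins with the most downstream start. Matches to TTCNNNGAA were found in 3 of the 16 windows, those of CISH and of LIFR starts 2 and 3, where they read TTCATCGAA and TTCCTTGAA. The progesterone response element core was in 4 windows, beside 14.8% of all windows. These were the windows of STAT5A starts 1 and 2, of the downstream PRLR start (35118073 to 35118372) and of LIFR start 2. The STAT5A windows overlap and share the 1 match. Neither the palindrome ACANNNTGT nor the estrogen response element (GGTCA and TGACC, 3 bases apart) had a match in any of the 16, searched on both strands. Of all windows, only 5.37% and 0.057% held them, so their absence here sets these genes apart from few others. A match is a stretch of letters and not a measured binding site.

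**Figure D5:**
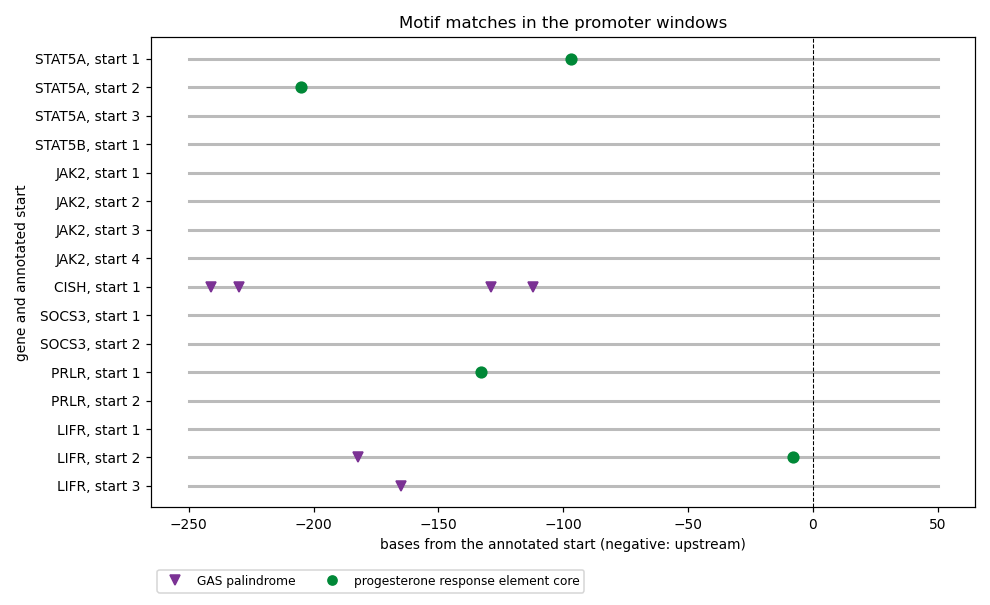
Each line is 1 annotated promoter window, with distance from the start in bases on the horizontal axis, triangles for matches to the STAT palindrome and circles for the progesterone response element core. CISH carries 4 triangles between -241 and -112, and 3 of the 7 genes carry a circle, beside 17.5% of all genes with a window. The 7 genes have more windows per gene (16 for 7) than all genes do (35114 for 27303).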

How the data were processed

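Labelled cDNA from 44 ZR-75-1 cultures went onto Affymetrix Gene ST arrays. The authors deposited RMA values on the log2 scale, 1 per transcript cluster and array, in which background, quantiles and probe effects had been adjusted. The submitters' processing notes name RMA and limma, with no version. Gene names rest on the Gene 2.0 ST annotation, which the cluster identifiers matched, although the study gives the design as Gene 1.0 ST. Arrays limit the precision here by their number.

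The deposited log2 values were used unchanged. Clusters above the 30th percentile of their array on at least 3 arrays were kept (41374 of 53617). A single model of all 14 group means was fitted in limma 3.58.1 (R 4.3.3, 30 residual degrees of freedom), and the moderated t-statistics were corrected by the Benjamini-Hochberg method over all clusters kept. Intervals are 95% intervals of the fit. The methods of the study set a stricter threshold for the time course; 0.05 was used here. The fit was tested on simulated data. The members and the lists were chosen with earlier results of these data known. The text names all 7 members, up to 4 called genes per list with the largest change for priming, P4 16 h and MPA 16 h, and the genes most like each member, with PGR and FKBP5 as label checks. Alternatives were no filter, a 50th percentile filter, only the compared arrays, array weights, the interquartile range of the array as covariate, a variance trend, a replicate block and leaving out each array. Names and promoter windows came from RefSeq (GRCh38.p14). Scanner files and protein sequences were not used here.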

Additional observations from a re-analysis of the deposited data

Results flagged for a closer look

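For 3 of the 7 genes the progestin effect differed between 16 h and 4 h by a test of the difference itself (limma, adjusted p of at most 0.05). With P4, where 6.71% of all clusters were called, the difference was 1.06 on the log2 scale for STAT5A, 0.58 for STAT5B and -0.71 for PRLR. With MPA, where 4.38% were called, it was -0.63 for PRLR. The STAT5B call was lost with only the compared arrays (adjusted p = 0.186) and without replicate 1 of P4 16 h (0.49) or replicate 3 of the 4 h vehicle (0.48), and the PRLR call with MPA was lost with only the compared arrays (adjusted p = 0.0637). In the 5 arrays of E2+P4, no array of any of the 7 genes stood far enough from the others to pass Dixon's test at the 95% level; groups of 3 were not tested in this way.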

How the results depend on the processing

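No call of a member turned direction under any alternative. Counts of called members moved by more than 1.5 times in the following cases. For priming the count was 1 without the filter and 0 with only the compared arrays, beside 2. For P4 4 h it was 2 with only the compared arrays, beside 4, and for MPA 4 h it was 1 with only the compared arrays and 5 with array weights, beside 3. For E2+MPA against E2+P4 it was 0 with only the compared arrays, beside 2. For the MPA effect at 16 against 4 h it was 0 with only the compared arrays and 2 with the stricter filter, the interquartile range or the variance trend, STAT5A being the second gene, beside 1. For vehicle over time it was 0 with only the compared arrays and 2 with array weights, beside 1. The array weights stopped before their tolerance was reached. Leaving out single arrays gave counts between 1 and 2 for priming, 0 and 3 for E2+MPA against E2+P4, and 1 and 2 for the MPA effect at 16 against 4 h; the permutation value of SOCS3 with MPA lay between -0.18 and -0.11.

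Replicate numbers did not pair the samples: deviations of arrays with the same number correlated at 0.02 on average over 273 pairs, against -0.01 over 546 pairs with different numbers. With a replicate block the counts of called members were 2 for priming, 6 for P4 16 h and 6 for MPA 16 h, and those of all 19 comparisons equalled the counts without it.

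Of 1029 single gene values under the alternatives other than leaving out an array, 23 lost and 10 gained a call, and of 1176 leaving out an array, 35 lost and 3 gained one. Values called under neither setting turned sign in 16 and 75 cases, with a size of at most 0.38 without the alternative. With only the compared arrays the spread is estimated from fewer arrays.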
